A study of Solanum dulcamara with 18 samples.

Results

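The flooding effect in leaves that were being eaten was read from 6 leaf RNA-seq libraries of Solanum dulcamara (bittersweet nightshade), out of 18 libraries in the series. In the tested leaves, 3 libraries came from plants that were flooded and carried caterpillars (infested flooding). They were set against 3 libraries from plants with control watering that carried caterpillars as well (infested control). The insect was the beet armyworm, Spodoptera exigua, whose larvae fed for 48 h. Water treatments ran for 5 days before the insects were added and went on through the 2 insect days. Both groups had caterpillars, so the groups differ in water treatment. How much was eaten in each group is not among the values used here. Libraries were chosen by their titles, and the series design calls the 3 of each group biological replicates. Whether a library stood for 1 plant or several was not stated in the labels. The other 12 libraries (flooding and control without caterpillars, and drought with and without them) entered the same model and served for comparison.

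In flooded soil, oxygen becomes scarce around the roots, and shoots take part in the response through ethylene, abscisic acid and changes in transport from the roots. Leaf-chewing insects set off a separate response led by jasmonate, in which defence genes such as protease inhibitors are switched on in plants of the nightshade family. Bittersweet grows along ditches and banks and is known for stem root primordia that grow out when the plant is flooded.

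Features were assembled transcript contigs of up to 15047 bases, with a median of 1054 bases. The deposited tables hold an ID and a length for each, and 0 of 24158 IDs were found among the 35381 genes of the RefSeq gene table for this species (assembly daSolDulc1.2). Contigs therefore carry no gene name, function or genome position here, and 4 are given by ID and the rest by length. No check of tissue markers was possible for the same reason. The 6 libraries held 6717218, 8963650 and 14063255 reads in infested flooding (replicates 1, 2 and 3) and 8667361, 9803271 and 10171944 reads in infested control. Levels are in CPM, read counts relative to a library size that was scaled by TMM (trimmed mean of M values). A contig was called when its adjusted p in the edgeR quasi-likelihood test was under 0.05.

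Flooding went with a change in 3102 of the 20170 contigs tested among infested leaves (15.4%), and falls were more frequent among large changes. At any size, 1352 contigs rose (6.7% of those tested) and 1750 fell (8.68%). At 2-fold or more, 347 rose (1.72%) and 804 fell (3.99%), together 5.71% of contigs. At 8-fold or more, 21 rose and 53 fell. The median log2 fold change was 0.63 among the contigs that rose and −0.95 among those that fell, against 0.02 over all contigs tested. In whole leaves, fewer cells of a type and less RNA per cell cannot be told apart.

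The balance between rises and falls depended on how libraries were scaled. With library totals alone in place of TMM, every log2 fold change moved up by a median of 0.10, and 2334 contigs were called higher and 1366 lower. The share of calls that were rises was then 63.1%, against 43.6% with TMM, while at 2-fold or more falls still outnumbered rises (682 against 490). The number of calls also rested on single libraries. Without infested flooding replicate 2, 546 contigs were called higher and 859 lower. Without infested control replicate 3 these were 557 and 1043, and without infested control replicate 1 they were 798 and 1340. At 2-fold or more, 162 rises and 461 falls were called without infested flooding replicate 2, and 158 rises and 615 falls without infested control replicate 3. A fit of the 6 libraries alone called 533 higher and 1087 lower.

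**Figure D1:**
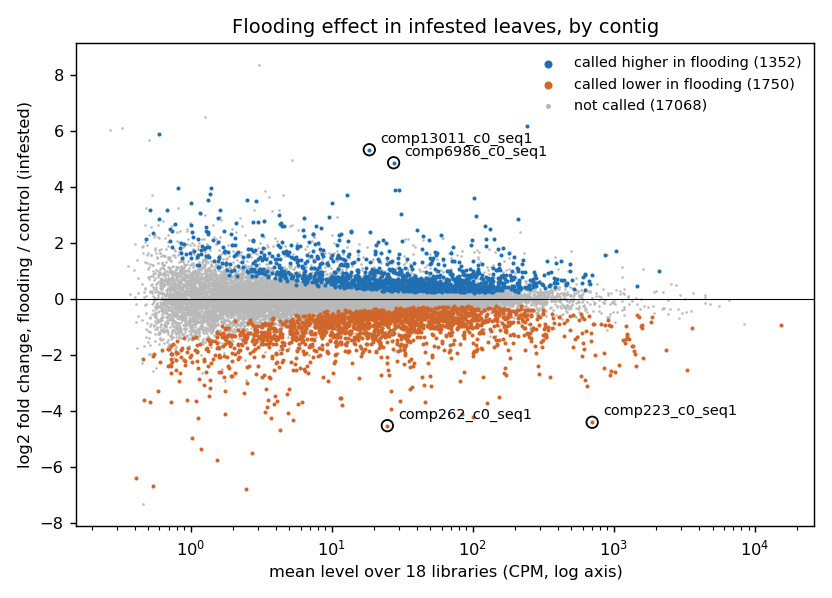
Each point is 1 contig, with its mean level over all 18 libraries in CPM on a log axis (x) and its log2 fold change between infested flooding and infested control (y). The 1352 contigs called higher are blue, the 1750 called lower are orange, and circles mark the 4 contigs given by ID, which lie above 4.8 or below −4.4.

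Contigs with the largest folds had uneven levels among the flooded libraries when they rose. The largest rises and falls were sought among called contigs with an average of 8 CPM or more over the 6 libraries and no overlap between groups, a set of 1038 rises and 1323 falls. Groups did not overlap in 32.9% of all contigs tested. In comp13011_c0_seq1 (647 bases), infested flooding libraries had 38.6, 133 and 5.66 CPM, against 1.66, 1.49 and 1.19 CPM in infested control. The 3 flooded libraries were widely spread, and the lowest of them still lay above all controls. The log2 fold change was 5.34 ± 1.48 (SE, edgeR adjusted p = 0.0258). This call was lost without infested flooding replicate 2, where the log2 fold change was 3.88 (edgeR adjusted p = 0.13). It was also lost without infested control replicate 1, 2 or 3 (edgeR adjusted p = 0.0748, 0.0691 and 0.0937) and with the 6 libraries alone (0.0519).

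The second largest rise had the same order of libraries. In comp6986_c0_seq1 (1243 bases), infested flooding libraries had 60.6, 184 and 8.49 CPM, against 4.39, 1.81 and 2.49 CPM in infested control. Replicate 2 was again highest and replicate 3 lowest, with no overlap between groups. The log2 fold change was 4.87 ± 1.06 (SE, edgeR adjusted p = 0.00785), and it was 3.55 without infested flooding replicate 2 (edgeR adjusted p = 0.0458). With only the 6 libraries compared, the call was lost (edgeR adjusted p = 0.0545).

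Of the next 4 rises, 2 short contigs were even across libraries and 2 were not. A contig of 657 bases had 59.3, 71.5 and 45.4 CPM in infested flooding and 4.15, 5.20 and 2.27 CPM in infested control (log2 fold change 3.91 ± 0.44, SE, edgeR adjusted p = 0.00013). A contig of 609 bases had 58.7, 81.0 and 51.1 CPM in infested flooding and 3.67, 6.80 and 2.38 CPM in infested control (3.88 ± 0.39, edgeR adjusted p = 4.59e-05). In both, all flooded libraries lay within a narrow range far above the controls. A contig of 1218 bases had 21.7, 60.0 and 4.18 CPM in infested flooding and 2.96, 2.02 and 1.51 CPM in infested control (3.72 ± 1.05, edgeR adjusted p = 0.028). A contig of 1091 bases had 6.29, 48.4 and 10.5 CPM in infested flooding and 1.78, 2.76 and 1.40 CPM in infested control (3.45 ± 0.85, edgeR adjusted p = 0.0155). Both of these were highest in replicate 2, and both calls were lost without it. The log2 fold change was then 2.51 for the 1218-base contig (edgeR adjusted p = 0.168) and 2.10 for the 1091-base contig (0.1). The call of the 1218-base contig was also lost without infested control replicate 1, 2 or 3 (edgeR adjusted p = 0.067, 0.0743 and 0.103), and that of the 1091-base contig without infested control replicate 1 or 3 (0.0524 and 0.0677). With the 6 libraries alone, neither of the 2 was called (edgeR adjusted p = 0.0714 and 0.0631).

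The largest called rise of all fell outside the ranking because its groups overlapped. This contig of 682 bases had 541, 2026 and 18.8 CPM in infested flooding, against 26.9, 4.67 and 4.11 CPM in infested control (log2 fold change 6.19 ± 1.74, SE, edgeR adjusted p = 0.0276). Infested flooding replicate 3 lay below infested control replicate 1. The call was lost without infested flooding replicate 2, where the log2 fold change was 4.57 (edgeR adjusted p = 0.112), without infested control replicate 2 or 3 (0.0819 and 0.105) and with the 6 libraries alone (0.0794). It is given because of its rank and was chosen after its values were seen.

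The largest falls were more even. In comp262_c0_seq1 (1254 bases), infested flooding libraries had 1.02, 2.71 and 4.81 CPM, against 101, 52.3 and 61.9 CPM in infested control. All flooded libraries lay far below the lowest control. The log2 fold change was −4.52 ± 0.37 (SE, edgeR adjusted p = 1.37e-05). In comp223_c0_seq1 (1748 bases), infested flooding libraries had 44.1, 25.4 and 77.1 CPM, against 562, 697 and 1858 CPM in infested control (−4.40 ± 0.72, edgeR adjusted p = 0.00164). The groups did not overlap, and infested control replicate 3 was the highest library. Without that library the log2 fold change was −3.68 (edgeR adjusted p = 0.00685).

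Each of the next 4 falls kept its groups far apart. A contig of 986 bases averaged 13.4 ± 7.56 CPM in infested flooding and 251 ± 53.9 CPM in infested control (SD, n = 3 each), and its log2 fold change was −4.21 ± 0.46 (SE). A contig of 2076 bases averaged 12.1 ± 5.52 CPM in infested flooding and 212 ± 45.8 CPM in infested control, with a log2 fold change of −4.09 ± 0.35. In both, infested flooding replicate 3 was the highest of the flooded libraries. Contigs of 792 and 789 bases had log2 fold changes of −3.93 ± 0.83 and −3.78 ± 0.53. Their edgeR adjusted p-values were 0.00682 and 0.000519, and those of the 986-base and 2076-base contigs were 0.000111 and 1.55e-05. These 4 calls, and those of comp262_c0_seq1 and comp223_c0_seq1, held under every alternative fit.

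**Figure D2:**
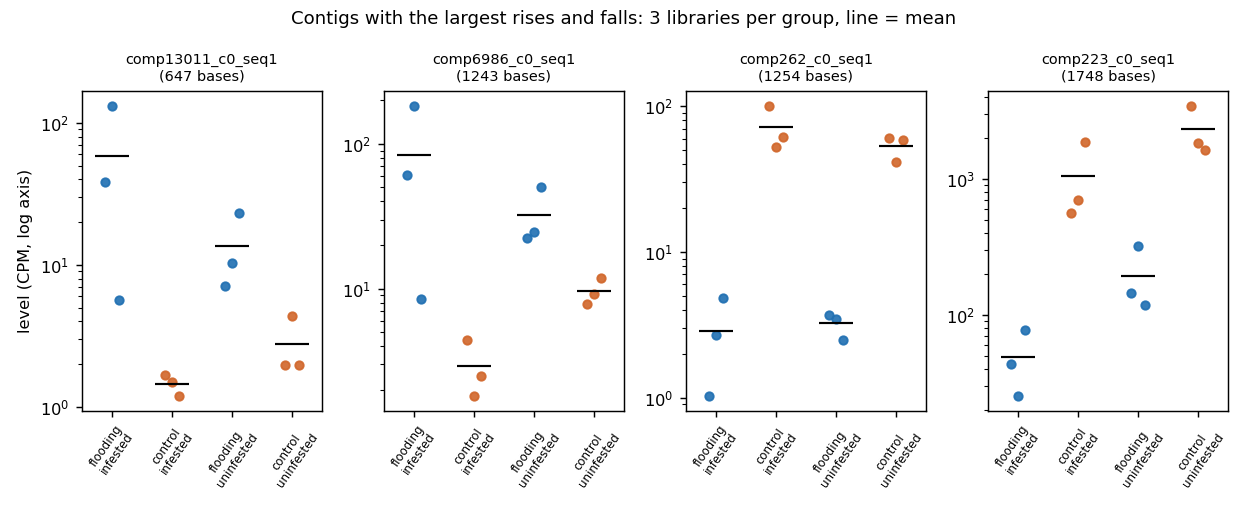
Levels in CPM (log axis) of the contigs with the 2 largest rises and the 2 largest falls, with 1 point per library and a line at the mean of 3. The flooded infested libraries of the 2 rises span 5.66 to 133 CPM and 8.49 to 184 CPM, while in the 2 falls they lie together below all infested controls.

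The 2 rises and 2 falls of smallest p included the 1978-base contig described below. A contig of 596 bases rose to 44.2, 30.4 and 42.5 CPM in infested flooding, against 6.05, 7.65 and 8.43 CPM in infested control (log2 fold change 2.40 ± 0.17, SE, edgeR adjusted p = 4.1e-06). A contig of 1670 bases fell to 10.8, 10.7 and 12.3 CPM in infested flooding, against 55.2, 53.3 and 50.2 CPM in infested control (−2.22 ± 0.17, edgeR adjusted p = 6.33e-06). In this contig the replicates of each group lay close together, and the groups were far apart. A contig of 1135 bases averaged 5.85 ± 2.51 CPM in infested flooding and 75.1 ± 19.7 CPM in infested control (SD, n = 3 each), and its log2 fold change was −3.63 ± 0.30 (edgeR adjusted p = 1.37e-05).

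Ranked by reads gained or lost, the contigs were abundant ones with smaller folds. The largest gain was in a contig of 1896 bases, with 2453, 2522 and 2781 CPM in infested flooding and 1370, 1384 and 1132 CPM in infested control (log2 fold change 1.0 ± 0.20, SE, edgeR adjusted p = 0.00454). The second was in a contig of 1978 bases, with 1515, 1627 and 1485 CPM in infested flooding and 508, 443 and 464 CPM in infested control (1.71 ± 0.16, edgeR adjusted p = 1.68e-05). In both, the groups were well apart. The third gain, in a contig of 2984 bases, was less secure, with 1163, 1414 and 1279 CPM in infested flooding and 214, 879 and 207 CPM in infested control (1.57 ± 0.44, edgeR adjusted p = 0.0259). Infested control replicate 2 stood between the flooded libraries and the other 2 controls. The call was lost without infested flooding replicate 2 or infested control replicate 1 or 3 (edgeR adjusted p = 0.0834, 0.0878 and 0.0972) and with the 6 libraries alone (0.146).

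The largest loss was in a contig of 930 bases. It averaged 8807 ± 2978 CPM in infested flooding and 16873 ± 4595 CPM in infested control (SD, n = 3 each), and its log2 fold change was −0.94 ± 0.30 (SE, edgeR adjusted p = 0.0473). This call lay at the threshold and was lost when any 1 of 15 libraries was left out and with the 6 libraries alone (edgeR adjusted p = 0.134). A contig of 1191 bases had 994, 479 and 1190 CPM in infested flooding and 4993, 3679 and 6670 CPM in infested control (−2.53 ± 0.35, edgeR adjusted p = 0.0004). A contig of 1337 bases had 1031, 649 and 1140 CPM in infested flooding and 2940, 2555 and 4462 CPM in infested control (−1.82 ± 0.28, edgeR adjusted p = 0.000862). In all 3 contigs infested flooding replicate 2 was the lowest library and infested control replicate 3 the highest. Together these 3 contigs took 1.32%, 0.674% and 1.24% of reads in infested flooding and 2.33%, 1.82% and 3.00% in infested control.

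Called contigs of both directions together made up a larger part of the reads than of the contigs tested (15.4%). Contigs called lower were 8.68% of those tested and contigs called higher 6.7%. Each direction alone fell below its share of contigs in some libraries. Those called lower held 10.7%, 8.13% and 11.5% of the reads of the infested flooding libraries and 19.6%, 18.2% and 22.3% of those of infested control. Those called higher held 10.1%, 11.9% and 9.87% of reads in infested flooding and 6.19%, 6.59% and 5.56% in infested control. These contigs were chosen on the same libraries, so the shares describe them and add no test. Of the 85 contigs that averaged 1000 CPM or more over the 18 libraries, 26 were called lower (30.6%) and 3 higher (3.53%), and the others were not called. From 100 to 1000 CPM these shares were 12.7% lower and 11.6% higher of 1944 contigs. From 10 to 100 CPM they were 9.79% lower and 8.47% higher of 9797. Under 1 CPM they were 3.58% lower and 1.62% higher of 1172, where the median SE of a log2 fold change was 0.58, against 0.15 from 10 to 100 CPM. Read level in CPM grows with contig length, and contigs over 2000 bases were called higher in 11.0% and lower in 8.96% of 4242. At 2-fold or more these shares were 0.684% higher and 2.40% lower. Contigs of up to 750 bases were called higher in 3.92% and lower in 5.90% of 4492.

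Few contigs were present in 1 group and unread in the other. Of all contigs, 323 had 0 reads in infested control and at least 1 in infested flooding, and 28 of them were read in all 3 flooded libraries. Conversely, 251 had 0 reads in infested flooding and at least 1 in infested control, and 16 of them were read in all 3 controls. Most held 3 reads or fewer over the 3 libraries of the other group (244 of the 323 and 210 of the 251). A count of 0 over a group allows a level of up to 0.101 CPM in infested flooding and 0.105 CPM in infested control, for counting error only. Of the 4 contigs of highest mean in these sets, 3 were read in 1 library of the 6 and 1 in 2 libraries. A contig of 757 bases had 868 reads in infested control replicate 2 and 0 in the other 5 infested libraries compared. A contig of 1019 bases had 120 reads in infested flooding replicate 3 and 0 in the other 5. A contig of 2005 bases had 102 reads in infested flooding replicate 2 and 0 in the other 5, and one of 1553 bases had 19 and 29 reads in infested control replicates 1 and 2. None of these 4 was called with edgeR, the first 2 having been left out by the filter on low counts. Of the 251 contigs unread in infested flooding, 3 passed that filter and 2 of them were called lower. Of the 323 unread in infested control, 7 passed it and 0 were called. The largest called fall was a contig of 788 bases with 0, 0 and 1 reads in infested flooding and 19, 51 and 64 reads in infested control (edgeR adjusted p = 0.000448).

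Flooded replicates differed in how far they lay from the controls. Infested flooding replicate 2 had the highest level of the flooded libraries in 773 of the 1352 contigs called higher (57.2%) and the lowest in 1234 of the 1750 called lower (70.5%). Infested flooding replicate 3 was lowest in 171 of the contigs called lower (9.77%) and replicate 1 in 345 (19.7%). Among contigs called higher, replicate 3 was highest in 299 (22.1%) and replicate 1 in 280 (20.7%). Over all tested contigs, the root mean square distance between 2 libraries on the log2 scale was 0.50 to 0.66 within infested flooding and 0.52 to 0.54 within infested control. Between the groups it was 0.59 to 0.97. Counting noise alone was exceeded in every pair of replicates within these groups: a chi-square over contigs, divided by its degrees of freedom, came to 12.6 in the closest pair and 36.9 in the farthest.

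Most contigs called in infested leaves had a flooding effect of the same sign in leaves without caterpillars. The comparison among uninfested leaves shares no library with the one above, so the lists can be set against each other. There, 1170 contigs were called higher (5.8%) and 2043 lower (10.1%), in all 15.9% of those tested. With library totals in place of TMM the balance turned, with 2458 called higher and 1447 lower. Of the contigs that rose in infested leaves, 663 also rose in uninfested leaves, which is 49.0% of the infested list and 56.7% of the uninfested list. Of those that fell, 1262 also fell in uninfested leaves, or 72.1% and 61.8% of the lists. Among the contigs that rose in infested leaves, 1311 of 1352 had a positive log2 fold change in uninfested leaves, with a median of 0.45. Among those that fell, 1742 of 1750 had a negative one, with a median of −0.83. Across contigs, the 2 log2 fold changes had a Pearson r of 0.73 over all 20170 and of 0.85 over the 12680 contigs that averaged 8 CPM or more. These contigs share libraries, scaling and 1 model, so r carries no p.

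The number of shared rises depended on the libraries. Contigs that rose in both numbered 344 without infested control replicate 3, 363 without infested flooding replicate 2, and 424, 444 or 418 without uninfested control replicate 1, 2 or 3. They numbered 446 without uninfested flooding replicate 1 and 461 without infested control replicate 1. The number was 285 when each comparison was fitted on its own libraries and 1423 with library totals in place of TMM. Contigs that fell in both numbered 755 without infested flooding replicate 2 and 765 with own libraries. In uninfested leaves themselves, rises numbered 720 without uninfested flooding replicate 1 and 612, 742 or 648 without uninfested control replicate 1, 2 or 3, and falls numbered 1341 without uninfested control replicate 1.

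**Figure D3:**
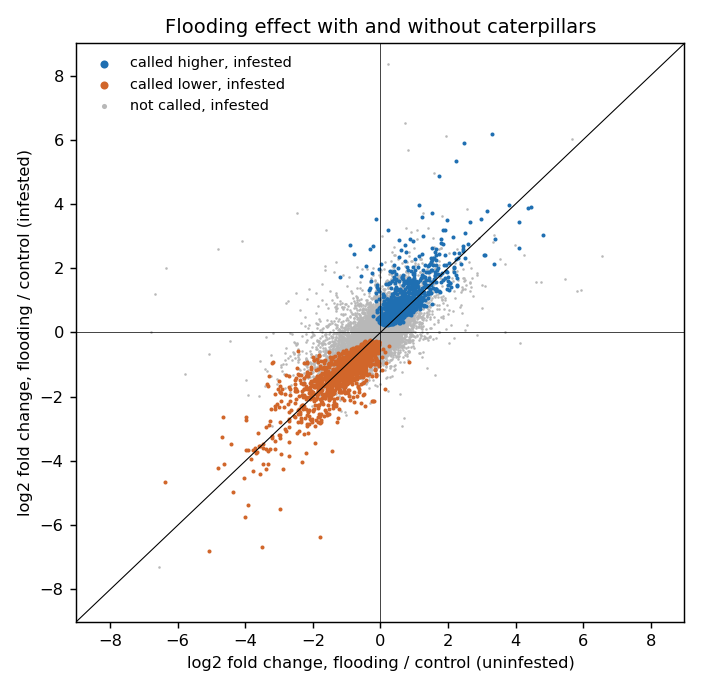
Each point is 1 of 20170 contigs, with its log2 fold change between flooding and control in uninfested leaves (x) and in infested leaves (y), and colours show the call in infested leaves. The diagonal marks equal effects. Most called contigs have the same sign on both axes, with 1311 of 1352 rises to the right of 0 and 1742 of 1750 falls to the left.

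Most contigs that were called in infested leaves and not called in the same direction in uninfested leaves had effects of the same sign there. The 689 such rises had medians of 0.60 in infested and 0.29 in uninfested leaves on the log2 scale, and 648 of them had the same sign. The 488 such falls had medians of −0.81 and −0.43, and 480 had the same sign. The contigs were picked by their infested values, which favours a larger size there. Contigs called for flooding averaged over both insect treatments, a choice made after the values above were seen, were not picked on 1 side. The 2939 such rises had medians of 0.47 in infested and 0.44 in uninfested leaves, and the 3517 such falls had −0.69 and −0.72.

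The difference itself was tested for each contig, as the flooding effect in infested leaves minus that in uninfested leaves. edgeR called 0 of 20170 contigs (0%). At an unadjusted p under 0.05 there were 755 of the 20170. This share is below the 0.05 that such a threshold allows when no effect differs. Of the 755, 548 had a higher flooding effect in infested leaves and 207 a lower one. DESeq2 called 7, of which 6 were higher in infested leaves. limma on the normalized table called 0 with a pseudocount of 1 and 1 with a pseudocount of 0.1. A miss of the threshold does not show that the effects were equal.

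Of the contigs that DESeq2 called, 5 shared 1 pattern of levels. They were low in uninfested flooding plants, while the infested groups lay far closer together. These contigs were chosen after their values were seen. A contig of 890 bases had 1318, 978 and 1540 CPM in infested flooding and 896, 1390 and 999 CPM in infested control. It had 139, 86.5 and 72.1 CPM in uninfested flooding and 451, 331 and 511 CPM in uninfested control. Flooding went with a log2 difference of 0.22 ± 0.28 among infested leaves, where the groups overlapped, and of −2.12 ± 0.29 (SE) among uninfested leaves. The difference between these effects was 2.34 ± 0.40, with an adjusted p of 0.169 in edgeR and 0.000157 in DESeq2.

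A contig of 1787 bases had 15.5, 16.2 and 13.4 CPM in infested flooding and 9.01, 15.1 and 13.3 CPM in infested control, which overlapped. It had 1.18, 1.03 and 0.45 CPM in uninfested flooding and 2.93, 2.91 and 3.71 CPM in uninfested control, which did not. Its difference of effects was 2.12 ± 0.35 (SE), with an adjusted p of 0.144 in edgeR and 0.000323 in DESeq2. A contig of 1669 bases averaged 18.0 ± 4.90 CPM in infested flooding and 9.46 ± 5.70 CPM in infested control, and 0.29 ± 0.12 CPM in uninfested flooding and 2.07 ± 0.54 CPM in uninfested control (SD, n = 3 each). Its difference of effects was 3.71 ± 1.0, with an adjusted p of 0.0411 in DESeq2 and no call in edgeR (unadjusted p = 0.00213).

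In the other 2 the infested groups were lower with flooding, by less than in uninfested leaves. A contig of 1110 bases had 18.0, 19.7 and 29.5 CPM in infested flooding and 36.0, 33.8 and 30.9 CPM in infested control. It averaged 2.64 ± 0.22 CPM in uninfested flooding and 14.5 ± 0.34 CPM in uninfested control (SD, n = 3 each). Its log2 fold changes were −0.57 ± 0.19 in infested and −2.45 ± 0.22 in uninfested leaves, and the adjusted p of their difference was 0.133 in edgeR and 0.000221 in DESeq2. A contig of 1064 bases had 44.6, 46.0 and 45.1 CPM in infested flooding and 90.3, 56.1 and 65.6 CPM in infested control, with no overlap. It averaged 1.10 ± 0.65 CPM in uninfested flooding and 7.57 ± 2.09 CPM in uninfested control (SD, n = 3 each). The infested fall of this contig was not called (log2 fold change −0.64 ± 0.23, SE, edgeR adjusted p = 0.0756). The difference of effects was 2.17 ± 0.42, with an adjusted p of 0.491 in edgeR and 0.00109 in DESeq2. The sixth contig, of 2005 bases, is the one with 102 reads in infested flooding replicate 2 and 0 in the other infested flooding and control libraries, so no fold is given.

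**Figure D4:**
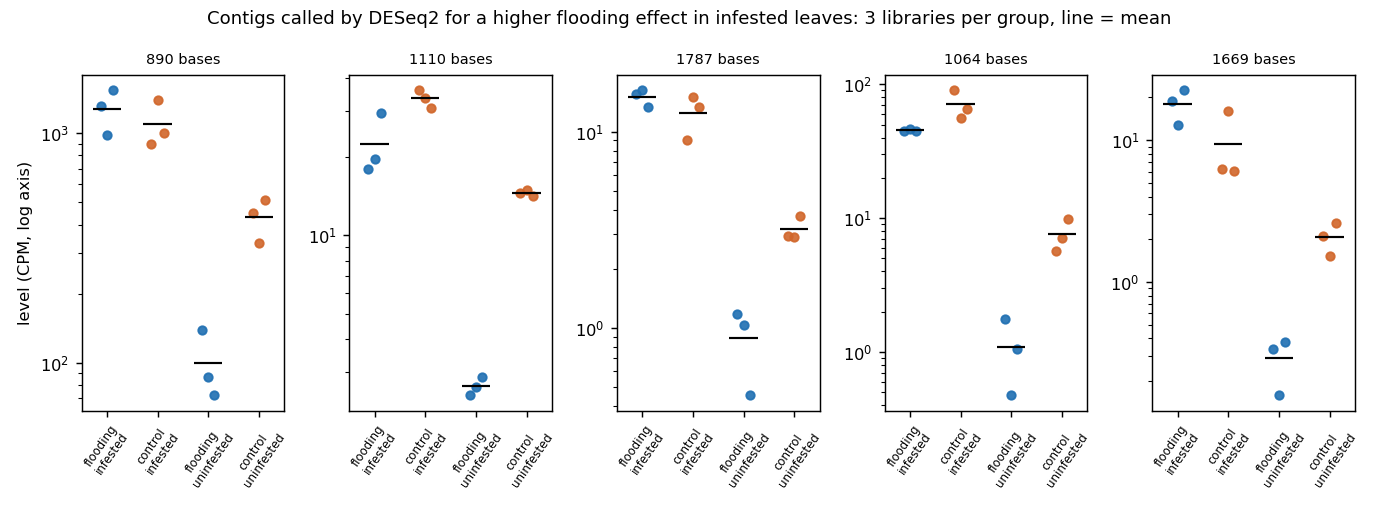
Levels in CPM (log axis) of 5 contigs that DESeq2 called for a higher flooding effect in infested than in uninfested leaves, with 1 point per library and a line at the mean of 3. In each panel uninfested flooding is lowest (72.1 to 139 CPM in the contig of 890 bases), and both infested groups lie above both uninfested groups.

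The contig of 1224 bases went the other way, with a larger fall in infested leaves. It had 7.76, 6.93 and 7.15 CPM in infested flooding and 30.1, 21.9 and 27.4 CPM in infested control. It had 15.6, 21.4 and 14.3 CPM in uninfested flooding and 29.2, 30.1 and 29.3 CPM in uninfested control. Flooded leaves were below controls in both settings, and infested flooding was the lowest group. The log2 fold changes were −1.87 ± 0.17 in infested and −0.79 ± 0.15 in uninfested leaves, and the difference of −1.08 ± 0.22 (SE) had an adjusted p of 0.718 in edgeR and 0.042 in DESeq2. A second fall of this kind, in a contig of 1376 bases, had 7.01 ± 1.44 CPM in infested flooding and 33.9 ± 3.27 CPM in infested control. Uninfested leaves averaged 23.2 ± 12.4 CPM with flooding and 31.9 ± 3.86 CPM without it (SD, n = 3 each). The difference of effects was −1.82 ± 0.59 (SE, edgeR unadjusted p = 0.00806, adjusted p = 0.9999).

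Among the rises of at least 2-fold that were called, averaged 8 CPM or more and did not overlap, the largest difference was in a contig of 835 bases. It had 7.17, 24.4 and 20.3 CPM in infested flooding and 3.20, 2.76 and 1.95 CPM in infested control. Uninfested leaves averaged 0.13 ± 0.05 CPM with flooding and 0.22 ± 0.27 CPM without it (SD, n = 3 each), under 1 CPM in every library. The difference of effects was 3.64 ± 1.12 and was not called (edgeR adjusted p = 0.9999). It was 2.20 without uninfested control replicate 3 and 1.84 with limma at a pseudocount of 0.1. comp6986_c0_seq1 came next, at 3.14 ± 1.36 (SE, edgeR adjusted p = 0.9999), and its difference was 1.81 without infested flooding replicate 2. Its uninfested leaves had 22.5, 24.6 and 50.1 CPM with flooding and 7.83, 9.19 and 11.9 CPM without it.

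Contig lists taken from other libraries placed the flooding effect beside herbivory. The list of 579 contigs raised by feeding in drought plants (called by edgeR between infested and uninfested drought libraries) uses neither infested flooding nor infested control libraries. Of these contigs, 136 were called lower with flooding in infested leaves (23.5%, against 8.68% of all contigs tested) and 17 higher (2.94%, against 6.7%). Their median log2 fold change was −0.23, against 0.02 over all contigs. By library, the mean log2 level of the list was −0.31, −0.25 and −0.09 in infested flooding, relative to the mean of infested control, whose libraries stood at 0.10, −0.01 and −0.09. Infested flooding replicate 3 thus lay beside infested control replicate 3, and the other 2 flooded libraries lay below all controls. The median was −0.41 or −0.14 without uninfested drought replicate 3 or 1, and −0.35 without infested flooding replicate 3. In uninfested leaves the same list had a median flooding effect of −0.48, with 204 contigs called lower (35.2%, against 10.1% of all contigs) and 6 higher (1.04%, against 5.8%). The difference of effects was positive for 73.9% of the list (median 0.21), against 54.2% of all contigs (median 0.02).

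Among the 69 contigs lowered by feeding in drought plants, calls were mostly rises. With flooding in infested leaves 18 of them were called higher (26.1%, against 6.7% of all contigs tested). Lower calls numbered 3 (4.35%, against 8.68%), and the median of the list was 0.38, against 0.02 over all contigs. The list's mean level was 0.46, 0.46 and 0.35 in infested flooding, all above the infested controls at 0.06, −0.12 and 0.05. The median was 0.23 without uninfested drought replicate 2.

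Contigs that responded to drought without caterpillars mostly had flooding effects of the same sign in infested leaves. The log2 fold change was positive for 86.5% of those raised by drought and for 8.69% of those lowered by it, against 52.6% of all contigs. Of the 1160 raised by drought in uninfested leaves, 416 were called higher (35.9%) and 12 lower (1.03%), with a median of 0.47. Of the 1750 lowered by drought, 834 were called lower (47.7%) and 11 higher (0.629%), with a median of −0.60. Over all contigs tested, 6.7% were called higher and 8.68% lower, and the median was 0.02. The mean level of the drought-raised list was 0.45, 0.76 and 0.39 in infested flooding, against 0.04, 0.15 and −0.18 in infested control. That of the drought-lowered list was −0.71, −1.05 and −0.57 in infested flooding, against −0.03, −0.10 and 0.13 in infested control. Neither list overlapped between groups, and infested flooding replicate 2 lay farthest out in both. For contigs lowered by flooding in uninfested leaves the libraries stood at −0.90, −1.16 and −0.73 in infested flooding and at −0.03, −0.03 and 0.06 in infested control.

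**Figure D5:**
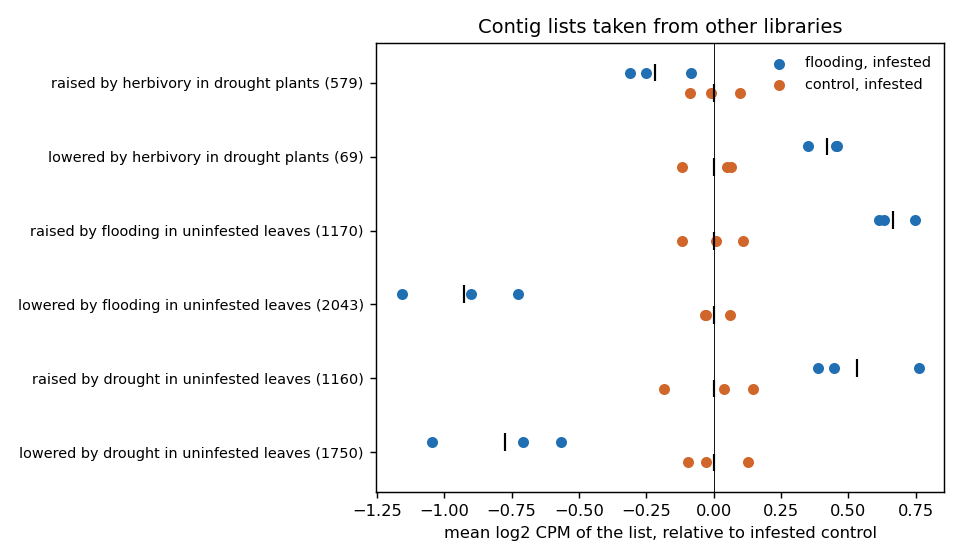
Mean log2 CPM of 6 contig lists in each infested flooding and infested control library, relative to the mean of infested control, with 1 point per library, a bar at each group's mean and the number of contigs in brackets. The lists come from libraries that are not plotted. The groups overlap only in the list raised by herbivory in drought plants (−0.09 for both infested flooding replicate 3 and infested control replicate 3).

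Infested drought plants were measured against the same infested controls, so the values are given side by side and not compared as independent. With drought 961 contigs were called (4.76%), 378 higher (1.87%) and 583 lower (2.89%). For comp262_c0_seq1 infested drought libraries had 6.29, 9.39 and 9.70 CPM (log2 fold change −3.08 against control, edgeR adjusted p = 0.000671). For comp223_c0_seq1 they had 81.8, 339 and 256 CPM (−2.20, edgeR adjusted p = 0.0686). For the contigs of 657 and 609 bases that rose with flooding, the log2 fold changes with drought were 2.25 and 2.21 (edgeR adjusted p = 0.0118 and 0.00615). For comp13011_c0_seq1 and comp6986_c0_seq1 they were 1.69 and 1.13, and neither was called (edgeR adjusted p = 0.613 and 0.624).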

How the data were processed

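Leaf RNA-seq of 18 libraries was deposited as a table of raw read counts with 24158 contigs, per the file headers. A second deposited table holds a normalized signal for 22410 contigs; on its values, the signal is the count times 1 factor per library, per kilobase (largest relative departure 1.7e-09). Bowtie 0.12.7 and DESeq are named in the submitters' processing notes. Assembly, counting and use of strand are not given in the sources used here, so reads could be divided between near-identical contigs. Of 261 tested contigs from assembly components with more than 1 contig, 19 were called higher and 18 lower. Among all 20170 contigs tested, 6.7% were called higher and 8.68% lower. Columns were tied to samples by the number in each sample's description.

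Counts were tested with edgeR 4.0.16 in R 4.3.3: filterByExpr (minimum count 10, minimum total 15) kept 20170 contigs, TMM scaled the libraries, and 1 robust quasi-likelihood model with 6 group means was fitted to all 18 libraries (12 residual degrees of freedom; common biological coefficient of variation 18.7%). P-values were adjusted by Benjamini-Hochberg over all contigs. The SE is the absolute log2 fold change over the square root of F, and log2 CPM values took 2 as prior count. Alternatives used DESeq2 1.42.0 and limma 3.58.1. The fit was tested on simulated data.

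Contigs given by the naming rule came from called contigs that averaged 8 CPM or more in the 6 libraries, with no overlap of groups. They were the 6 largest rises and falls, the 3 largest gains and losses in CPM, the 2 rises and falls of smallest p, and the 2 of each direction with the largest difference from uninfested leaves. Of contigs at 0 in 1 group, the 2 of highest mean in each direction were added. Contigs called by DESeq2 for the difference were given whether or not they met this rule. So were the contig called in opposite directions and the largest called rise and fall. The comparison, lists and rule were chosen with earlier results of these data known. The labels give no pairing of libraries by replicate number, and the main fit used none. Same-numbered infested flooding and infested control libraries had deviations correlating at −0.04, 0.05 and 0.08. Between libraries of different numbers these correlations ran from −0.21 to 0.18. With 3 libraries per group they cannot show whether libraries were paired.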

Additional observations from a re-analysis of the deposited data

Results flagged for a closer look

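A contig of 862 bases was called in opposite directions with and without caterpillars, the only one of its kind among the contigs called in both comparisons. It had 1.90, 2.17 and 1.49 CPM in infested flooding and 3.08, 4.46 and 2.81 CPM in infested control, against 4.12, 4.12 and 3.47 CPM in uninfested flooding and 2.24, 1.98 and 2.28 CPM in uninfested control. All flooded libraries lay below the controls in infested leaves and above them in uninfested leaves. The log2 fold change was −0.92 ± 0.28 in infested leaves (SE, edgeR adjusted p = 0.037) and 0.85 ± 0.26 in uninfested leaves (edgeR adjusted p = 0.0376). The test of the difference gave −1.76 ± 0.38, which did not pass over all contigs (edgeR adjusted p = 0.729; over the alternatives 0.086 to 1). It was chosen after its values were seen. The infested call was lost without infested flooding replicate 1, 2 or 3 or infested control replicate 1 or 2 (edgeR adjusted p = 0.0713, 0.062, 0.122, 0.0544 and 0.148).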

How the results depend on the processing

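No list median changed sign under an alternative, nor did any contig for which alternatives were run (all those given above except the contigs at 0 reads in 1 group), and no contig called in infested leaves was called the opposite way, while the counts moved. Library totals in place of TMM gave 2334 rises in infested and 2458 in uninfested leaves, with 1423 in both. Fits on the libraries of each comparison alone gave 533 rises (193 at 2-fold or more) and 1087 falls in infested leaves, with 285 rises and 765 falls in both, and a median of 0.71 for contigs raised by flooding in uninfested leaves. For the difference of the flooding effect DESeq2 called 7 contigs and limma with a pseudocount of 0.1 called 1. For contigs lowered by herbivory in drought plants the median was 0.31 with RLE scaling and 0.29 with DESeq2. With limma at pseudocounts of 1 and 0.1 this median was 0.28 and 0.31. Lists taken at an adjusted p under 0.01 gave it as 0.24. They gave 0.68 and −1.0 for contigs raised and lowered by flooding in uninfested leaves. Lists of 2-fold changes gave 0.50 for contigs lowered by herbivory in drought plants. For lists from uninfested leaves, the values were 1.28 and −1.21 for contigs raised and lowered by flooding, and 0.72 and −1.17 for drought. The causes of these shifts were not tested. The labels give no pairing of same-numbered libraries. With the replicate number as a block, the fit of 18 libraries called 1264 higher and 1689 lower. The fit of the 6 infested libraries with that block called 540 and 1073.

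Leaving out 1 library at a time gave 546 to 1401 rises and 859 to 2058 falls in infested leaves (158 to 448 and 461 to 1000 at 2-fold or more), and 612 to 1225 rises and 1341 to 2172 falls in uninfested leaves. Rises in both ranged over 344 to 693, falls in both over 755 to 1292, and contigs called for the difference over 0 to 1. List medians ranged over −0.41 to −0.14 and 0.23 to 0.52 for contigs raised and lowered by herbivory in drought plants. For those raised and lowered by flooding in uninfested leaves they ranged over 0.45 to 0.61 and −0.90 to −0.67. For drought in uninfested leaves the ranges were 0.34 to 0.54 and −0.73 to −0.47. Among the 24 contigs given by the naming rule, 677 alternative results kept the call, 43 lost it and 0 reversed. Under 1 CPM, where the median SE was 0.58, all 19 rises and 42 falls called were of 2-fold or more. Replicates are separate samples of unstated make-up. The p-values of the main fit rest on the spread between replicates as estimated over all 18 libraries, and not within the infested groups alone.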

Other observations

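Several of the largest rises in infested leaves shared an order of libraries, a pattern chosen after the values were seen. Contigs of 647, 1243, 1218 and 682 bases were all highest in infested flooding replicate 2 and lowest in infested flooding replicate 3. Among uninfested flooding libraries, replicate 3 was the highest in each of these contigs. The labels do not tie replicate numbers of different groups to each other, so the orders are not compared between groups. The contig of 682 bases had 94.0, 64.8 and 460 CPM in uninfested flooding and 7.83, 35.4 and 18.2 CPM in uninfested control, and replicate 3 was the highest flooded library. comp13011_c0_seq1 had 7.14, 10.4 and 23.1 CPM in uninfested flooding and 1.96, 4.36 and 1.95 CPM in uninfested control (log2 fold change 2.24, edgeR adjusted p = 0.274). The same contig had 80.4, 6.56 and 0.59 CPM in uninfested drought libraries, a wider spread than among uninfested flooding libraries.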
